A study of Mus musculus with 10 samples.

Results

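The genes described here build the N-glycan precursor in the endoplasmic reticulum (ER), transfer it to proteins and trim its outer glucoses. They are 35 of the 27665 genes in the deposited table, taken by symbol from a list of this pathway that was drawn up with earlier results of these data known. All 35 were found and all passed the filter on low counts. Islets of 10 male C57BL/6J mice, an inbred laboratory strain, were isolated and their RNA was sequenced, and the labels name no engineered allele. The mice were 8 to 10 weeks old and ate a western diet (5 mice) or standard chow (5 mice) for 4 weeks, with 1 library per mouse. The chow mice came from cage 3, 4 western diet mice from cage 4 and 1 western diet mouse from cage 2, so diet and cage cannot be told apart.

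N-linked glycosylation begins on the cytosolic face of the ER, where sugars are added one by one to the lipid dolichol. The partly built glycan is flipped into the lumen, extended with mannose and glucose, and moved as one block to asparagines of nascent proteins by the oligosaccharyltransferase (OST). Glucosidases then remove the glucoses in steps, and the lectin chaperones calnexin and calreticulin bind the protein while the innermost glucose remains. In beta cells, which make up most of an islet, this route serves receptors, transporters, prohormone convertases and granule membrane proteins, while insulin itself carries no N-glycan.

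The upstream sequences of 4 members are shown because these genes were called higher on western diet and, as a set, differ in the control elements searched. Alg12 holds the ER stress element, Stt3a and Stt3b alike hold 1 box CCAAT, and Mogs holds neither. Each run gives the 250 bases before the RefSeq start site (GRCm38.p6), 5′ to 3′ on the gene's strand. The positions are chr15:88819319-88819568 for Alg12 (minus strand), chr6:83115256-83115505 for Mogs (plus), chr9:36767623-36767872 for Stt3a (minus) and chr9:115310469-115310718 for Stt3b (minus). Capitals mark the box CCAAT on either strand (ATTGG on the strand printed) and, in Alg12, the ER stress element that contains one.
Alg12: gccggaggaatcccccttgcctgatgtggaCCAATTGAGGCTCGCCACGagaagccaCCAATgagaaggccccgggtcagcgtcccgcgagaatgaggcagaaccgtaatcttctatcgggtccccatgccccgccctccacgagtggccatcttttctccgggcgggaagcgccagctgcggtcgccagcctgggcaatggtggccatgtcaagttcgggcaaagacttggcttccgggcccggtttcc
Mogs: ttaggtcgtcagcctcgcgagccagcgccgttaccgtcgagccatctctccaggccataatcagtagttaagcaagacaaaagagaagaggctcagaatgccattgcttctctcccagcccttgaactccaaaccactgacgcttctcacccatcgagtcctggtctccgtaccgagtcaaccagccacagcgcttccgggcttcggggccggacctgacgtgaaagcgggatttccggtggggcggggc
Stt3a: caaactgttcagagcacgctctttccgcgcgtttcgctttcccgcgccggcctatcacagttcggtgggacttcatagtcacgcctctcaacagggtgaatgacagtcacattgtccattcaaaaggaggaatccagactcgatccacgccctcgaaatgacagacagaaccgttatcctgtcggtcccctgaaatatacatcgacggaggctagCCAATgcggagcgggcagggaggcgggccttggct
Stt3b: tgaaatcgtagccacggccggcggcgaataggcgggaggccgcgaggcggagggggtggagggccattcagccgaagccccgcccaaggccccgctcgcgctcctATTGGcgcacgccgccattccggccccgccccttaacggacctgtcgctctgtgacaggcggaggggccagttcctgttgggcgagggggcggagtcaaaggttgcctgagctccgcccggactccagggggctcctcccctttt

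Motifs were searched on both strands in RefSeq promoters of 250 bases before to 50 after the start, which matched 31 of the 35 members in 32 promoters (Alg2, Alg11, Dpagt1 and Tusc3 had no entry). The ER stress element (ERSE) was found in 1 member promoter, that of Alg12, where it begins at position -220, and in 0.119% of all 32851 promoters and 0.127% of the 14148 promoters of tested genes. The second form of that element, ERSE-II, and the XBP1 core TGACGTGG were in 0 of the 32 member promoters, in 0.0365% and 0.676% of all promoters and in 0.0636% and 0.99% of those of tested genes. The cyclic AMP element TGACGTCA was in 1 member promoter, that of Alg13, or 3.12% of them, against 1.79% of all and 3.03% of those of tested genes. The box CCAAT, which the ER stress element also contains, was in 17 of 32 member promoters (53.1%), in 37.4% of all and in 37.2% of those of tested genes. These matches describe letters in a window, and binding was not measured.

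Total counts per library ranged from 1.65e+07 to 2.39e+07. The 10 islet endocrine markers summed to between 260100 and 299300 CPM (counts scaled to a common library size) in every library, led by Ins2. Among them Slc2a2, the glucose transporter of beta cells, was lower on western diet (log2 fold change -0.54, adjusted p = 0.00748 by edgeR) with no overlap, Iapp was higher (0.19, 0.0193) and the other 8 were not called. The 35 genes together took between 0.335% and 0.423% of the reads of a library.

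On western diet 14 of the 35 genes rose and 0 fell (quasi-likelihood test of edgeR, p adjusted over all genes tested by Benjamini-Hochberg and under 0.05). Among all 15104 genes tested 5.27% were called higher and 5.5% lower. The list was made with earlier results known, so this count is a description and no independent evidence of a direction. The increases were small, from 1.13-fold for the glucosidase subunit gene Ganab to 1.32-fold for Dpagt1, which makes the first dolichol-linked sugar. The log2 fold change was positive for 30 of 35 members, with a median of 0.16, against 51.0% of all tested genes with a median of 0.01. Of the members 34 had a mean of at least 5 CPM (counts scaled to library size). Among the 10700 tested genes of that level 773 (7.22%) were called higher and 713 lower. Their log2 fold change was positive in 56%, with a median of 0.02. In 7 members every western diet library lay above every chow library, as in 4.44% of all tested genes and 6% of those of at least 5 CPM. In 0 members every one lay below, as in 4.42% of all tested genes. Of these 7, Dpm2, Dpagt1, Alg11, Alg12 and Ost4 were called, and Alg8 and Alg9 were not. Each library is a separate mouse, so the test measures the spread between animals. Most of these were cage mates, and the test does not measure the spread between cages.

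Which genes passed depended on single mice. The count of 14 was 8, 6 and 5 without western diet cage 4 mouse 1, 4 or 5, and 6, 6, 9 and 9 without chow mouse 1, 3, 4 or 5. It was 11, 15 and 19 without western diet cage 4 mouse 2, cage 2 mouse 5 or chow mouse 2. All genes called higher were 796 with all mice and 558, 400 and 476 without cage 4 mouse 1, 4 or 5. They were 376, 431, 610 and 648 without chow mouse 1, 3, 4 or 5. Without cage 4 mouse 2, cage 2 mouse 5 or chow mouse 2 they were 589, 921 and 862. Alg2, Mogs, Stt3b, Dpagt1 and Ost4 stayed called in all 10 fits that each left out 1 mouse. In bulk islets, a change in the make-up of the islet and a change of RNA per cell cannot be told apart.

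**Figure D1:**
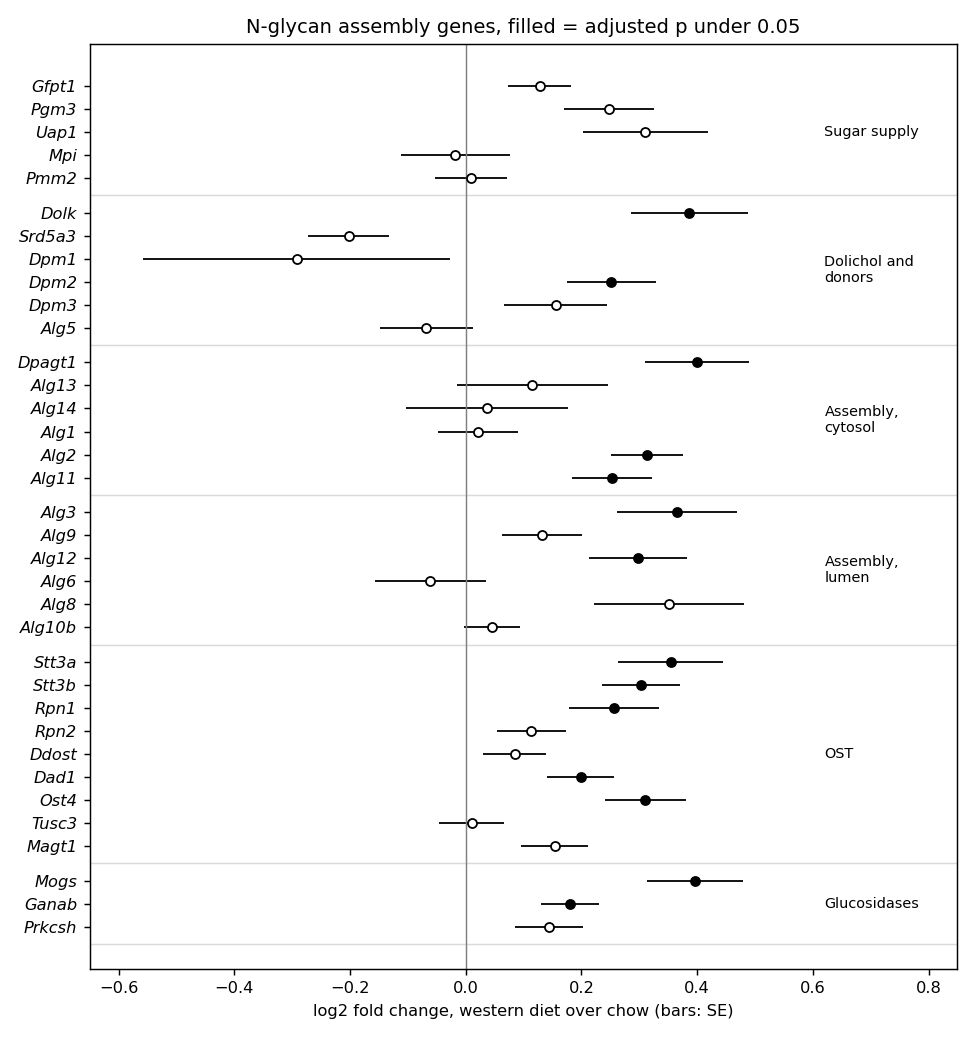
Log2 fold change of western diet over chow for the 35 genes in the order of the pathway, with SE as bars and filled points for genes called at an adjusted p under 0.05 (5 mice per diet). The 14 filled points lie between 0.18 and 0.40, and the 5 genes below 0 are all unfilled.

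None of the 5 genes that supply sugars for the pathway was called, although 3 had an unadjusted edgeR p under 0.05. Gfpt1, the rate-limiting enzyme of the hexosamine route to UDP-GlcNAc, had 625 ± 15.1 CPM with western diet and 572 ± 49.1 with chow (SD, 5 mice each), or 0.13 on the log2 scale (adjusted p = 0.136 by edgeR). Pgm3 and Uap1, which complete UDP-GlcNAc, had log2 fold changes of 0.25 (edgeR adjusted p = 0.0509) and 0.31 (0.086). Pgm3 lay just outside the threshold and passed it when cage 4 mouse 1 (0.0274), cage 2 mouse 5 (0.0383) or chow mouse 2 (0.0231) was left out, with DESeq2 (0.0422), with no filter on low counts (0.0259) and with the acinar marker mean as a covariate (0.0075). Of its exonic bases 28.3% lie opposite exons of Dop1a, and no source used here gives the strand setting. Uap1 passed when cage 2 mouse 5 was left out (0.00775), in which its 36.6 CPM were within the chow range of 30.5 to 42.8 CPM, and with DESeq2 (0.0361) or the acinar covariate (0.0173). Gfpt1 was called without chow mouse 2 (0.0238). Mpi and Pmm2, which make mannose phosphates for GDP-mannose, had log2 fold changes of -0.02 and 0.01.

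Among 6 genes of the dolichol carrier and its activated sugars, Dolk and Dpm2 rose. Dolk encodes dolichol kinase, which makes the dolichol phosphate on which all later steps depend. It had 19.6, 18.2, 15.03 and 19.5 CPM in western diet cage 4 mice 1, 2, 4 and 5 and 16.9 in cage 2 mouse 5, against 11.04, 13.7, 12.9, 14.8 and 15.8 in chow mice 1 to 5. Cage 4 mouse 4 fell inside the chow range and the other western diet mice lay above it. Its log2 fold change was 0.39 ± 0.10 (SE), with an adjusted p of 0.0213 by edgeR, and the call failed when leaving out western diet cage 4 mouse 1 (0.054) or 5 (0.0569) or chow mouse 1 (0.0631) or 3 (0.058).

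Dolichol phosphate mannose synthase has a catalytic subunit encoded by Dpm1 and small membrane subunits encoded by Dpm2 and Dpm3. Dpm2 had 33.7 ± 2.54 CPM with western diet and 28.4 ± 3.09 with chow (SD, 5 mice each), without overlap, and a log2 fold change of 0.25 ± 0.08 (SE), with an adjusted p of 0.0438 by edgeR. It sat just inside the threshold: of the 10 fits without 1 mouse, it was called only in those without western diet cage 2 mouse 5 (0.0461) or chow mouse 2 (0.0306), and the others reached at most 0.132, without western diet cage 4 mouse 4. Its call was also lost with upper quartile factors (0.0509), limma-voom (0.0526) and no robust moderation (0.0521). Dpm3 was at 0.16 (0.278). Dpm1 varied widely between mice, between 9.36 and 24.1 CPM on chow and 10.4 and 16.8 on western diet, with a log2 fold change of -0.29 ± 0.26 (SE), with an adjusted p of 0.528 by edgeR. Of its 7489 exonic bases 895 are shared with Gm20716, an overlapping gene on the same strand, so its count is uncertain.

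Srd5a3, which reduces polyprenol to dolichol or its precursor, had 20.97 ± 1.11 CPM with western diet and 24.1 ± 1.62 with chow (SD, 5 mice each). Its log2 fold change of -0.20 ± 0.07 (SE) was not called (edgeR adjusted p = 0.0697), and it was called lower without chow mouse 4 (0.0372), with DESeq2 (0.0472) and with a minimum of 5 CPM (0.0422). All 5 western diet mice were below the chow median. Alg5, the dolichol phosphate glucose synthase, had a log2 fold change of -0.07 (edgeR adjusted p = 0.633).

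Of 6 genes for the cytosolic steps of assembly 3 rose, namely Dpagt1, Alg2 and Alg11. Dpagt1 (ENSMUSG00000032123, GRCm38 chromosome 9, 44326019 to 44333900, plus strand) encodes the enzyme that tunicamycin blocks. Its CPM were 36.97, 29.8, 37.2 and 34.3 in western diet cage 4 mice 1, 2, 4 and 5 and 29.4 in cage 2 mouse 5, against 20.4, 27.4, 25.1, 27.9 and 26.1 in chow mice 1 to 5. The diets did not overlap, and the lowest value by a wide gap was chow mouse 1. On the log2 scale the increase was 0.40 ± 0.09 (SE), with an adjusted p of 0.00951 by edgeR.

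Alg2 (ENSMUSG00000039740, chromosome 4, 47465067 to 47474333, minus strand) adds mannose residues after Alg1. It had 187.5, 171, 174 and 181 CPM in western diet cage 4 mice 1, 2, 4 and 5 and 150.3 in cage 2 mouse 5, against 126, 137, 134, 146 and 152 in chow mice 1 to 5. The 4 mice of cage 4 lay above all chow mice and the cage 2 mouse lay just under chow mouse 5. This gave a log2 fold change of 0.31 ± 0.06 (SE), with an adjusted p of 0.00463 by edgeR, which was the smallest p among the 35 genes.

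Alg11 adds the last mannoses of the cytosolic stage. It was at 33.6, 32.8, 33.6 and 34.6 CPM in western diet cage 4 mice 1, 2, 4 and 5 and 33.1 in cage 2 mouse 5, against 23.9, 29.97, 26.5, 29.6 and 30.7 in chow mice 1 to 5. The western diet values were tightly grouped, all above the chow values. Its log2 fold change was 0.25 ± 0.07 (SE), with an adjusted p of 0.0254 by edgeR, and the call failed when leaving out western diet cage 4 mouse 4 (0.0575) or 5 (0.0575) or chow mouse 1 (0.0736) or 3 (0.0744). Alg13 and Alg14, the subunits of the enzyme for the second GlcNAc, and Alg1, which adds the first mannose, had log2 fold changes of 0.12, 0.04 and 0.02, and none was called (edgeR adjusted p of 0.613, 0.901 and 0.881). Of the exonic bases of Alg1, 17.6% lie opposite exons of Eef2kmt.

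In the lumen, Alg3 and Alg12, both mannosyltransferases that use dolichol phosphate mannose, rose. Alg3 begins the lumenal stage. It had 12.8, 13.7, 15.4 and 14.3 CPM in western diet cage 4 mice 1, 2, 4 and 5 and 15.8 in cage 2 mouse 5, against 10.1, 14.1, 10.1, 10.8 and 10.8 in chow mice 1 to 5. Chow mouse 2 stood apart from the other chow mice and within the western diet range. On the log2 scale the increase was 0.36 ± 0.10 (SE), with an adjusted p of 0.0306 by edgeR. The call failed when leaving out western diet cage 4 mouse 4 (0.0792) or 5 (0.0571), cage 2 mouse 5 (0.0601) or chow mouse 1 (0.0855), 3 (0.0823), 4 (0.0612) or 5 (0.0595). Of the exonic bases of Alg3, 8.5% lie opposite exons of Eef1akmt4 and 7.5% opposite exons of Gm49333.

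Alg12, whose promoter holds the ER stress element, adds a later mannose in the lumen. It was at 24.5, 21.4, 23.9 and 23.5 CPM in western diet cage 4 mice 1, 2, 4 and 5 and 22.3 in cage 2 mouse 5, against 15.6, 20.3, 20.8, 20.5 and 16.98 in chow mice 1 to 5. The diets did not overlap, by a narrow margin. This gave a log2 fold change of 0.30 ± 0.09 (SE), with an adjusted p of 0.0316 by edgeR, and the call failed when leaving out western diet cage 4 mouse 1 (0.0701), 4 (0.0776) or 5 (0.0628) or chow mouse 1 (0.0915) or 5 (0.0718).

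Alg9, the mannosyltransferase that acts before and after Alg12, and Alg8, which adds the second glucose, separated the diets without being called. Alg9 had 20.5 ± 0.608 CPM with western diet and 18.7 ± 1.10 with chow (SD, 5 mice each, edgeR adjusted p = 0.234), and Alg8 had 9.57 ± 0.634 and 7.47 ± 1.48 (edgeR adjusted p = 0.0886). Of the exonic bases of Alg9, 12.9% lie opposite exons of 1110032A03Rik. The glucosyltransferase genes Alg6 and Alg10b had log2 fold changes of -0.06 (edgeR adjusted p = 0.731) and 0.05 (0.592). The enzymes Alg6, Alg8 and Alg10b that add the glucoses in turn thus had values of -0.06, 0.35 and 0.05, none of them called.

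Of 9 OST genes 5 rose, Stt3a, Stt3b, Rpn1, Dad1 and Ost4. Mammals have a form built on STT3A, which sits at the translocon and acts as the protein enters the ER, and a form built on STT3B, which also acts later on sites that were skipped. Stt3a (ENSMUSG00000032116, chromosome 9, 36729344 to 36767679, minus strand) had 332, 301, 325 and 333 CPM in western diet cage 4 mice 1, 2, 4 and 5 and 269 in cage 2 mouse 5, against 190.5, 276, 239, 262 and 252 in chow mice 1 to 5. Only the cage 2 mouse fell within the chow range, under chow mouse 2. Its log2 fold change was 0.35 ± 0.09 (SE), with an adjusted p of 0.0273 by edgeR, and the call failed when leaving out western diet cage 4 mouse 1 (0.067), 4 (0.076) or 5 (0.068) or chow mouse 3 (0.0635), and with no filter on low counts (0.0892).

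Stt3b (ENSMUSG00000032437, chromosome 9, 115242581 to 115310421, minus strand) was at 131, 131, 141 and 135 CPM in western diet cage 4 mice 1, 2, 4 and 5 and 111 in cage 2 mouse 5, against 94.2, 115, 98.3, 113.5 and 105 in chow mice 1 to 5. The 4 mice of cage 4 lay above all chow mice, and the cage 2 mouse lay under chow mice 2 and 4. On the log2 scale the increase was 0.30 ± 0.07 (SE), with an adjusted p of 0.00865 by edgeR.

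Rpn1, Rpn2, Ddost, Dad1 and Ost4 encode subunits shared by both forms. Ribophorin I (Rpn1) was at 363, 333, 365 and 334 CPM in western diet cage 4 mice 1, 2, 4 and 5 and 327 in cage 2 mouse 5, against 249.9, 353, 268, 298 and 272 in chow mice 1 to 5. Chow mouse 2 alone reached into the western diet range. This gave a log2 fold change of 0.26 ± 0.08 (SE), with an adjusted p of 0.0453 by edgeR, just inside the threshold, and of the 10 fits without 1 mouse only those without western diet cage 2 mouse 5 (0.0462) or chow mouse 2 (0.00209) called it. The other 8 gave adjusted p between 0.0661, without chow mouse 4, and 0.117, without western diet cage 4 mouse 4. Rpn1 also lost its call with no filter on low counts (0.0749) and no robust moderation (0.0518).

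Dad1, a small subunit named as a defender against cell death, had 104, 101, 109 and 111 CPM in western diet cage 4 mice 1, 2, 4 and 5 and 100.1 in cage 2 mouse 5, against 83.7, 103, 92.7, 92.6 and 84.9 in chow mice 1 to 5. Chow mouse 2 again overlapped the western diet mice. Its log2 fold change was 0.20 ± 0.06 (SE), with an adjusted p of 0.0339 by edgeR. The call failed when leaving out western diet cage 4 mouse 1 (0.0544), 4 (0.0887) or 5 (0.0853) or chow mouse 1 (0.105), 3 (0.0679), 4 (0.0584) or 5 (0.079).

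Ost4 (ENSMUSG00000038803, chromosome 5, 30905885 to 30907788, minus strand) encodes a very short membrane subunit that stabilizes the catalytic one. It was at 43.97, 39.02, 41.2 and 44.4 CPM in western diet cage 4 mice 1, 2, 4 and 5 and 40.5 in cage 2 mouse 5, against 29.7, 34.4, 31.3, 34.2 and 38.8 in chow mice 1 to 5. The diets did not overlap, with chow mouse 5 just under the lowest western diet mouse. On the log2 scale the increase was 0.31 ± 0.07 (SE), with an adjusted p of 0.00893 by edgeR. Of its exonic bases 53.2% lie opposite exons of Agbl5, and no source used here says whether counting used strand, so reads of these genes may not be told apart. Agbl5 itself had a log2 fold change of -0.17 ± 0.09 (SE), with an adjusted p of 0.229 by edgeR.

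Ribophorin II (Rpn2) and Ddost, which encodes the OST48 subunit, were the most abundant of the 35 genes per length and were not called. Rpn2 had 524, 536, 492 and 513 CPM in western diet cage 4 mice 1, 2, 4 and 5 and 534 in cage 2 mouse 5, against 442, 560.2, 469.7, 488 and 444 in chow mice 1 to 5. Ddost had 441.5, 446, 422 and 421 CPM in western diet cage 4 mice 1, 2, 4 and 5 and 443 in cage 2 mouse 5, against 382, 468, 391, 415 and 393.5 in chow mice 1 to 5. In both genes chow mouse 2 was the highest of all 10 mice, and every western diet mouse lay above the chow median. The log2 fold changes were 0.11 ± 0.06 (SE), with an adjusted p of 0.229 by edgeR for Rpn2, which was called without chow mouse 2 (0.03), and 0.08 ± 0.05 (0.337) for Ddost.

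Magt1 and Tusc3 encode alternative thioredoxin-like subunits of the STT3B form. Magt1 had 271 ± 7.34 CPM with western diet and 243 ± 22.9 with chow (SD, 5 mice each, edgeR adjusted p = 0.0916), and was called without chow mouse 2 (0.0166). Tusc3 had 104 ± 8.07 and 104 ± 5.23 CPM, a log2 fold change of 0.01 ± 0.06 (SE), with an adjusted p of 0.932 by edgeR.

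Of the 3 glucosidase genes, Mogs and Ganab rose. Mogs (ENSMUSG00000030036, chromosome 6, 83115496 to 83118898, plus strand) encodes glucosidase I, which removes the outermost glucose after transfer. It was at 99.8, 99.2, 107 and 108 CPM in western diet cage 4 mice 1, 2, 4 and 5 and 87.3 in cage 2 mouse 5, against 61.99, 88.3, 75.9, 81.4 and 72.8 in chow mice 1 to 5. Only the cage 2 mouse overlapped the chow mice, just under chow mouse 2. This gave a log2 fold change of 0.40 ± 0.08 (SE), with an adjusted p of 0.00865 by edgeR.

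Glucosidase II removes the inner glucoses and has a catalytic subunit encoded by Ganab and a regulatory subunit encoded by Prkcsh. Ganab had 280.2, 286, 274 and 276 CPM in western diet cage 4 mice 1, 2, 4 and 5 and 264 in cage 2 mouse 5, against 225, 266, 234, 245 and 247 in chow mice 1 to 5. The cage 2 mouse lay just under chow mouse 2, and the other western diet mice were above all chow mice. Its log2 fold change was 0.18 ± 0.05 (SE), with an adjusted p of 0.0268 by edgeR. The call failed when leaving out western diet cage 4 mouse 1 (0.0537), 2 (0.0642), 4 (0.055) or 5 (0.052) or chow mouse 1 (0.0913), 3 (0.0821) or 4 (0.0538). Prkcsh, at 139 ± 4.87 and 126 ± 12.2 CPM (SD, 5 mice each), was not called (edgeR adjusted p = 0.126), and it was called without chow mouse 2 (0.0409).

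**Figure D2:**
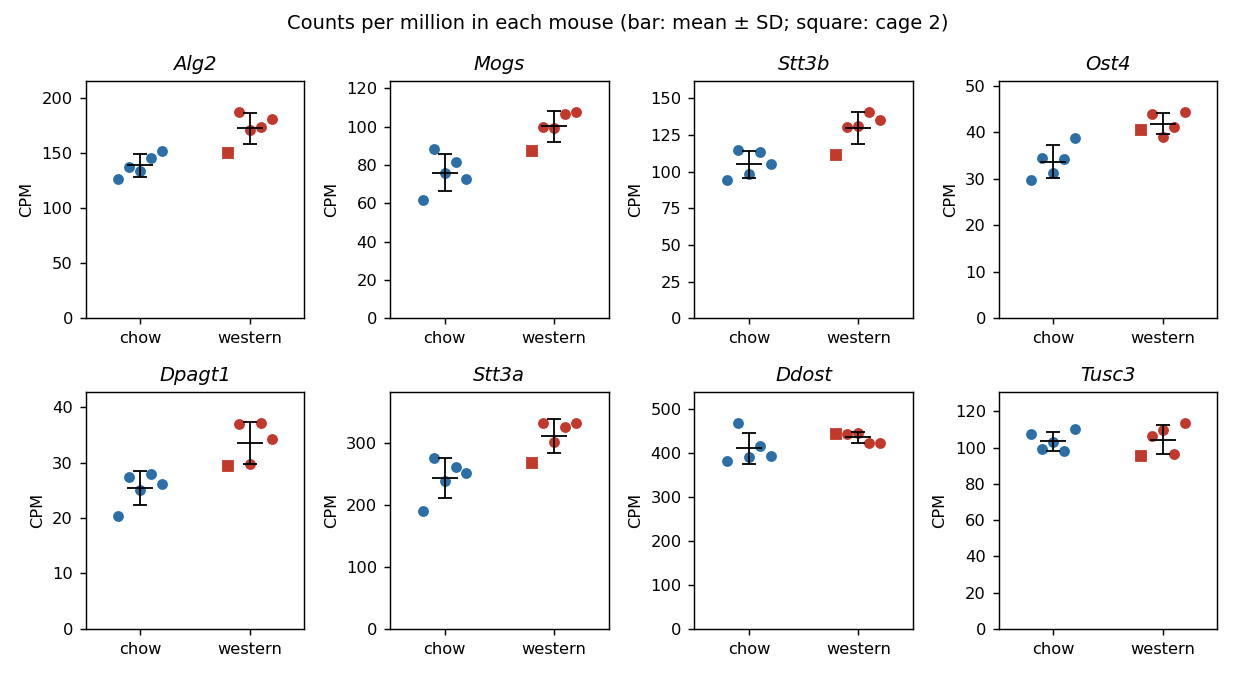
CPM of 8 genes in each mouse on chow (blue) and western diet (red), with the mean and SD as bars (n = 5 per diet), circles for cages 3 and 4 and squares for the mouse of cage 2. Ost4 and Dpagt1 do not overlap between the diets, the cage 2 mouse overlaps chow in Alg2, Mogs, Stt3b and Stt3a, and Ddost and Tusc3 overlap broadly.

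Levels per length were taken from the FPKM that the authors deposited, as the mean of all 10 libraries. Ddost was highest at 199 FPKM, followed by Rpn2 at 113, Rpn1 at 70.1 and Ganab at 67.2. Rpn1 and Ganab overlapped across mice, while Ddost and Rpn2 overlapped with no other member and not with each other. Within the OST, Stt3a (31.0), Tusc3 (30.3), Ost4 (29.6), Stt3b (27.8) and Dad1 (25.0) lay close together and below Magt1 (55.0). Among the assembly enzymes Alg2 stood at 45.1 FPKM, above those 5 OST genes, and the others ranged from 13.4 for Alg1 down to 1.76 for Alg6 and 0.672 for Alg13, the lowest member. Of the 35 genes 15 were above the 90th percentile of FPKM among tested genes, and Alg13 was at the 17.05th.

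**Figure D3:**
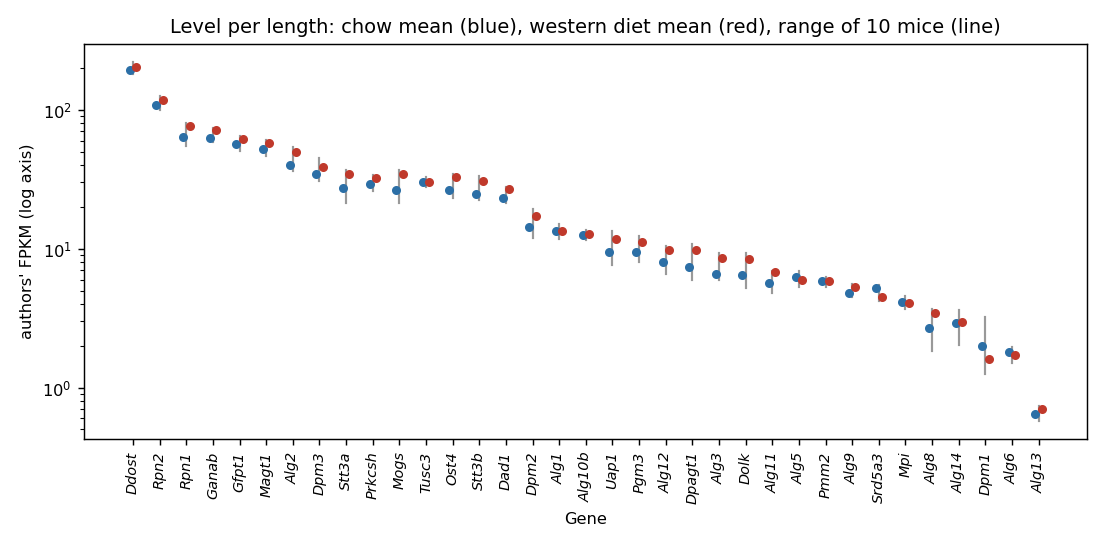
FPKM as deposited (log axis) for the 35 genes in falling order, with the chow mean in blue, the western diet mean in red and the range of the 10 mice as a line. Ddost at 199 and Rpn2 at 113 stand above the rest, and the range of Dpm1 is wide for its level.

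Ratios of partner genes within a library do not depend on library scaling, and 4 were compared between the diets with two-sided exact permutation tests, for which 0.00794 is the smallest p possible. The ratio of Stt3b to Stt3a was 0.417 ± 0.018 with western diet and 0.435 ± 0.0344 with chow (SD, 5 mice each), a log2 difference of -0.06 ± 0.06 (SE, exact permutation p = 0.365, adjusted over the 4 ratios 0.529). Both catalytic subunits thus rose with no detectable shift between them at this number of mice. The ratio of Magt1 to Tusc3 was 2.60 ± 0.182 and 2.36 ± 0.324, a log2 difference of 0.15 ± 0.10 (SE, exact permutation p = 0.175, adjusted 0.529). That of Prkcsh to Ganab was 0.503 ± 0.0139 and 0.515 ± 0.0258 (exact permutation p = 0.397, adjusted 0.529), and that of Alg14 to Alg13 was 1.56 ± 0.106 and 1.65 ± 0.375 (exact permutation p = 0.833, adjusted 0.833). In each ratio the diets overlapped, and these p-values do not show that the ratios are equal.

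**Figure D4:**
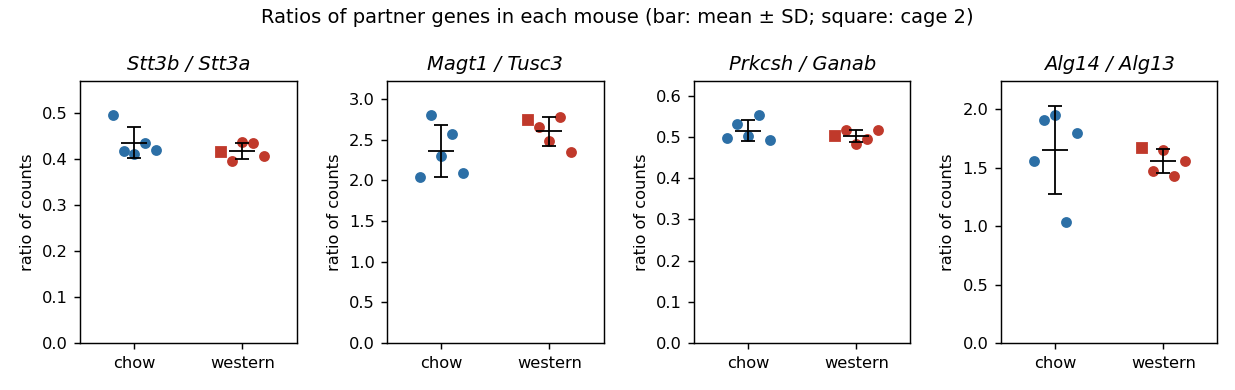
Ratio of counts of 4 pairs of partner genes in each mouse, chow in blue and western diet in red, with the mean and SD as bars (n = 5 per diet) and a square for the mouse of cage 2. The diets overlap in every panel, and chow mouse 1 is the high point of Stt3b to Stt3a and chow mouse 4 the low point of Alg14 to Alg13.

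The members moved together between mice of the same diet as well. Chow mouse 1 had the lowest chow value in 27 of the 35 genes (77.1%), where 24.4% of all tested genes had theirs in that mouse. Chow mouse 2 had the highest chow value in 17 (48.6%), against 22.1% of all tested genes. On western diet the cage 2 mouse was lowest in 14 (40%), against 22.1% of all tested genes. The genes share their libraries, so these shares are a description and were not tested.

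Against the mean chow level of each gene, the median member of the western diet mice was higher by 0.19, 0.16, 0.17 and 0.18 on the log2 scale in cage 4 mice 1, 2, 4 and 5 and by 0.11 in the cage 2 mouse. In chow mice 1 to 5 it was at -0.16, 0.13, -0.03, 0.05 and 0.02. Chow mouse 2 thus lay slightly above the cage 2 mouse. The summed CPM of the 9 OST genes overlapped more, with 2183 to 2328 on western diet and 1797 to 2288 on chow, and chow mouse 2 lay above 4 of the 5 western diet mice. The sums of the assembly genes did not overlap, with 263.5 to 309 CPM on western diet and 215 to 254 on chow for the cytosolic stage. For the lumenal stage they were 163 to 171 and 142 to 160.4, a narrow margin. A single gene weighed most in each sum. Alg2 had 150.3 to 187.5 CPM on western diet and 126 to 152 on chow. Alg10b, which was not called, had 82.5 to 90.5 and 77.3 to 87.2.

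**Figure D5:**
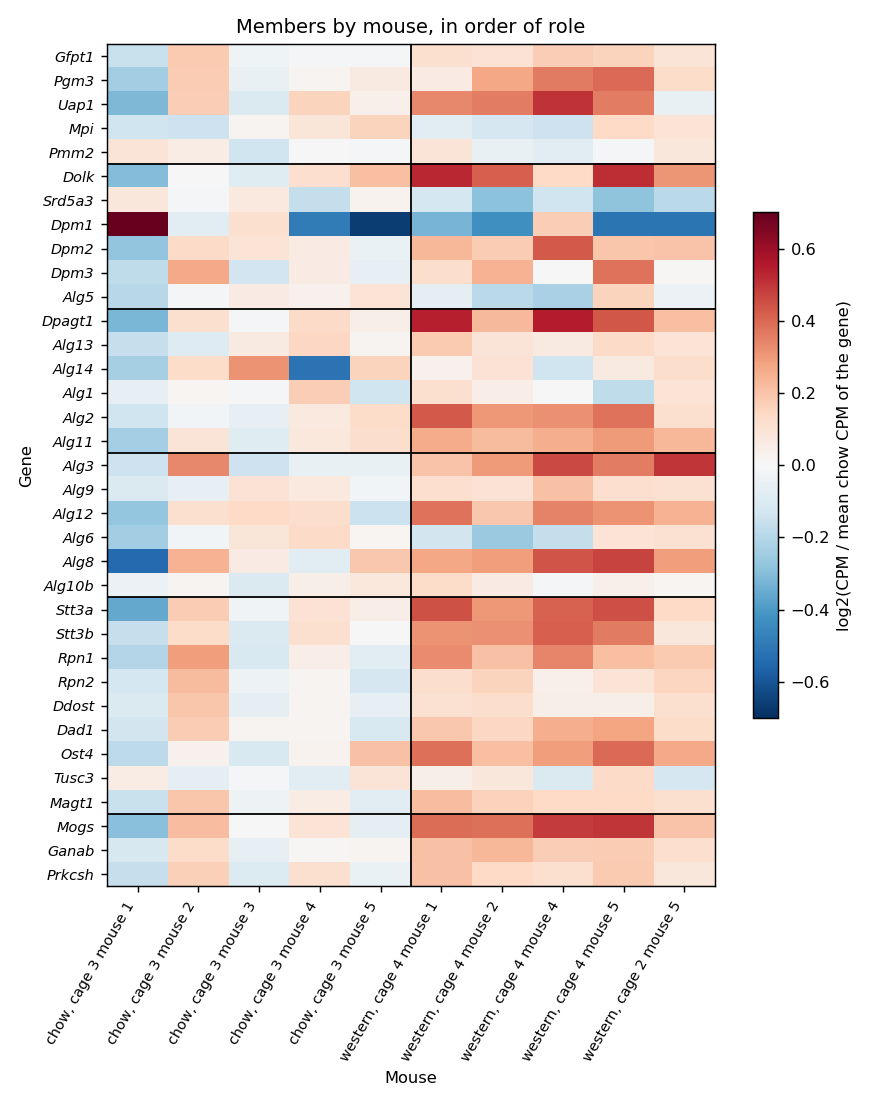
Log2 of CPM over the gene's mean chow CPM for the 35 genes (in pathway order, lines between roles) in each of 10 mice. The western diet columns are mostly red, chow mouse 1 is mostly blue, and chow mouse 2 resembles the western diet columns in the OST and glucosidase rows.

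Other genes of the route were taken from a list of 27, of which 25 were tested. Of these 8 (32%) were called higher and 0 lower, with a median log2 fold change of 0.14. The shares over all genes tested were 5.27% higher and 5.5% lower. This list was also chosen with earlier results known and was measured in the same 10 libraries, so it is no independent evidence. Among accessory OST genes 3 rose, Mlec, which encodes the glucose-binding lectin malectin (log2 fold change 0.40 ± 0.07 SE, edgeR adjusted p = 0.0039), Ostc (0.41, 0.045) and Tmem258 (0.53, 0.026). Mlec had 681 ± 22.5 CPM with western diet and 515 ± 69.4 with chow (SD, 5 mice each) with no overlap. With Krtcap2, which was not called (0.19, 0.0805), 8 of 13 OST subunit and accessory genes rose. In the supply of dolichol and sugars Nus1 (0.23, 0.0194), a subunit of the enzyme that starts dolichol, Gmppb (0.21, 0.0227), which makes GDP-mannose, and Uap1l1 (0.23, 0.0155) rose, which is 3 of 9 tested. Dhdds, the partner of Nus1, was not called (0.31, 0.0816), nor were Gmppa (0.16, 0.119), Pmm1 (0.15, 0.404), Dolpp1 (0.07, 0.73), Nagk (-0.03, 0.779) and Amdhd2 (-0.14, 0.413).

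Downstream of transfer the mannosidase-like genes Edem2 (log2 fold change 0.38, edgeR adjusted p = 0.02) and Edem3 (0.31, 0.0117) of glycoprotein degradation rose, and Edem1 (0.14, 0.204) of the same family was not called. The mannosidase gene Man1b1 (0.12, 0.129), the deglycosylating enzyme gene Ngly1 (-0.06, 0.589), the lectin chaperone genes Canx (0.12, 0.389) and Calr (-0.17, 0.0997), the folding sensor genes Uggt1 (0.09, 0.333) and Uggt2 (-0.15, 0.164) and the isomerase gene Pdia3 (-0.0043, 0.973) were not called. Mpdu1, needed for the use of dolichol-linked sugar donors, was not called either (-0.15, 0.254). The count of 8 was 4 or 5 without western diet cage 4 mouse 4 or 5 and 3 without chow mouse 3. In the other fits without 1 mouse it was 6 to 11. All genes called higher were 400 and 476 without cage 4 mouse 4 or 5 and 431 without chow mouse 3, against 796 with all mice.

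The authors' deposited table gives 16 of the 35 genes as higher and 0 as lower at an adjusted p under 0.05. Of all its 27665 genes 3.38% were higher and 3.67% lower. These shares include genes of low count that were not tested here, while all 35 members were tested. All 14 genes called here were among the 16, and the other 2 were Pgm3 (authors' adjusted p = 0.0427) and Uap1 (0.0368).

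Markers of other pancreatic cells were measured beside these results. The 10 acinar markers, from cells rich in ER, summed to 796 to 5803 CPM on western diet and 682 to 2819 on chow, with 0 of 10 called. With their mean as a covariate 16 members were called higher, against 14 without it. All genes called higher were 922 with that covariate, against 796 without it. Of 7 duct markers 2 were lower (Krt19 and Muc1), with summed levels of 285 to 303 and 283 to 309 CPM. Single markers were lower among 6 endothelial genes (Kdr, sums of 256 to 306 and 299 to 329 CPM), 6 macrophage genes (C1qa, 52.5 to 84.9 and 68.2 to 86.3 CPM) and 5 stellate and fibroblast genes (Pdgfrb, 16.2 to 36.8 and 19.04 to 104 CPM). No marker was at 0 in all libraries. Immediate early and heat shock genes, which respond to handling of tissue, moved with the diets, with 11 of 12 lower and sums of 8962 to 11100 CPM on western diet and 16140 to 20040 on chow. Their part in the increases of the glycosylation genes was not tested.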

How the data were processed

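Per the labels' protocols, islets were isolated and processed at once, and libraries were made from total RNA with a NEBNext Ultra kit. The authors deposited read counts per gene, whole numbers that are not normalized, and FPKM per gene, per the file headers. The same deposited table gives the authors' log2 fold change and their p-values. Per the submitters' processing notes, the tools were STAR 2.5, HTSeq 2 and DESeq2 and the builds mm10 and GRCm38, and whether counting used strand is not stated. The authors also deposited a scaled gene signal in 10 columns, not used here.

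Diet was tested on the counts in R 4.3.3 by edgeR 4.0.16, with filterByExpr with a minimum count of 10 (15104 genes kept), TMM factors, a robust quasi-likelihood fit of diet and Benjamini-Hochberg adjustment over all genes kept. Calls are at an adjusted p under 0.05. CPM are counts over TMM-scaled library sizes. SE is the size of the log2 fold change over the root of F. The test was checked on simulated counts. Overlaps come from GENCODE M21, in which 34 of 35 members had the deposited span and 10 had an exon overlapping another gene. Members and lists were chosen with earlier results of these data known. Every member is accounted for, with values per mouse for the 12 called members of smallest p and the 3 most abundant per length. Alternatives were RLE and upper quartile factors, other filters, DESeq2 1.42.0, limma-voom (limma 3.58.1), no robust moderation, protein-coding genes only, an acinar covariate, a block of mouse number and the omission of each mouse. Leaving out western diet cage 2 mouse 5 with chow mouse 1 was added after seeing the data. Protein sequences were not analysed here.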

Additional observations from a re-analysis of the deposited data

Results flagged for a closer look

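Each of the 35 genes and 4 ratios was checked in each diet for a mouse that stood apart from the other 4, by Dixon's test at its 95% critical value of 0.71, which chance passes in about 5% of groups. Of 78 groups 4 passed. Western diet cage 4 mouse 4 was high in Dpm1 (16.8 CPM, the others 10.4 to 11.8), in Dpm2 (38.2 CPM, the others 32.1 to 33.3) and in Alg9 (21.6 CPM, the others 20.1 to 20.3). Chow mouse 2 was high in Alg3 (14.1 CPM, the others 10.1 to 10.8).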

How the results depend on the processing

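The 14 members called higher were 12 to 16 under other scaling, filters, tools, no robust moderation, protein-coding genes alone or the acinar covariate. Under the same settings all genes called higher, 796 in the main fit, were 677 to 953. The members called higher were 5 to 19 with 1 mouse omitted and 7 when western diet cage 2 mouse 5 was omitted together with chow mouse 1. Alg2, Mogs, Stt3b and Dpagt1 were called in all 21 alternatives. Members called lower were 1 (Srd5a3) with DESeq2 and 1 with at least 5 CPM, and 0 to 1 with 1 mouse omitted. All genes called higher were 611 with that pair of mice omitted. They were 376 to 921 with 1 mouse omitted, and other pathway genes 3 to 11 higher and 0 to 1 lower. Same-numbered mice did not deviate together (correlations of -0.129 to 0.0483 in 5 pairs). The labels do not say that a number pairs mice, and these values show no pairing but cannot exclude it. With mouse number as a replicate block 6 members were called higher, 342 of all genes higher and 499 lower, and 3 other pathway genes higher.

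Signs changed in Pmm2, Tusc3, Mpi, Alg14, Alg1, Dpm1 and 1 ratio, none of them called (log2 scale). Pmm2 was at -0.0031 with upper quartile factors, -0.0080 with at least 5 CPM, -0.00020 with protein-coding genes and -0.025 with the replicate block. Tusc3 was at -0.0030 with upper quartile factors and -0.0074 with at least 5 CPM. With that pair omitted, Dpm1 was at 0.0035 (-0.29 with all mice), Alg14 at -0.043 and Alg1 at -0.014. With 1 mouse omitted, Mpi ranged from -0.058 to 0.026, Pmm2 from -0.030 to 0.024, Alg14 from -0.071 to 0.12, Alg1 from -0.012 to 0.066, Tusc3 from -0.021 to 0.042 and the ratio of Alg14 to Alg13 from -0.21 to 0.019. The cause was not tested. Alg13, Alg14 and Alg8 had means under 10 CPM in both diets, where counting error weighs more. Of these genes only Alg14 changed sign.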
